A study of Mus musculus with 2 samples.

Results

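The ion exchanger and cotransporter solute carriers are membrane proteins that swap or jointly carry sodium, potassium, protons, calcium, chloride, bicarbonate, sulfate and phosphate. The members described here are the rows whose symbol belongs to the Slc4, Slc8, Slc9, Slc12, Slc20, Slc24, Slc26 or Slc34 family, chosen by name and not by any measured value. They number 55 of the 23793 gene rows listed for each library. Of these, 52 encode carriers, and 3 share the prefix but transport nothing: *Slc9a3r1* and *Slc9a3r2* encode scaffold proteins that bind the exchanger Slc9a3, and *Slc4a1ap* encodes an adaptor protein. All 55 rows had an estimate (status OK) in both libraries.

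The GFP+ group was 1 library of sorted GFP+ cells and the GFP- group was 1 library of the remaining epithelial cells. Both came from small-intestinal organoids, gut epithelium grown in a gel from isolated crypts of ChgA-GFP mice, in which green fluorescent protein marks cells that use the chromogranin A gene. The culture medium held R-spondin conditioned medium (10%) with noggin and epidermal growth factor, and about 1% of the epithelial cells were sorted as GFP+. Polyadenylated RNA was amplified with a low-input kit and sequenced. No age, sex or number of mice is stated in the labels, and the GFP+ gate takes in any cell in which the chromogranin A promoter is active. The comparison addresses which genes set chromogranin A cells, chiefly the serotonin-producing enterochromaffin cells, apart from the other epithelial cells of the same cultures.

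In gut epithelium, sodium/proton and chloride/bicarbonate exchangers of the cell surface take up salt and hold the pH of the cell. The sodium-potassium-chloride importer of the basal membrane loads cells with chloride for fluid secretion, and potassium-chloride exporters lower it. In excitable cells the balance of chloride importers and exporters sets the direction of chloride flow through channels. Sodium/calcium exchangers remove calcium after it has entered, and phosphate carriers feed metabolism and bone.

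The values are FPKM, or sequenced fragments scaled to transcript length and library size, which allow levels of different genes to be compared within a library. Differences are log2((FPKM + 1) in GFP+ / (FPKM + 1) in GFP-), and a gene was set apart when the difference reached 2 (4-fold). With 1 library per fraction there was no replicate check and no test. Each member had a deposited lower confidence bound of 0 in both libraries, and among members of at least 1 FPKM the upper bound was a median of 2.31 times the FPKM in GFP+ and 2.34 times in GFP-, so these bounds separated no member between the libraries and no neighbours in any order of levels given below. Over the 5563 genes with 10 FPKM or more in each library, the median of the log2 ratios was -0.50. Differences were therefore also computed with that median moved to 0, and with the libraries rescaled to one total of FPKM, which adds 0.62 to each log2 ratio. These are the other scalings referred to below, in that order.

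Of 6 enterochromaffin markers 4 could be compared, all at least 4-fold higher in GFP+, with a summed level of 4332 FPKM in GFP+ cells against 108 FPKM in GFP- cells. *Chga*, the reporter gene, and *Chgb* had no estimate in GFP+, where the program stopped on too many fragments. Markers of other cells were present in both libraries. The summed level was 1012 FPKM in GFP+ cells against 16903 FPKM in GFP- cells over 6 Paneth genes (6 of 6 at least 4-fold lower), 342 and 1366 FPKM over 4 stem cell genes (2 of 4), 1290 and 3079 FPKM over 6 goblet genes (2 of 5 that reached 1 FPKM), and 1494 and 3397 FPKM over 7 enterocyte genes (2 of 7). The 7 other enteroendocrine hormone genes summed to 180 FPKM in GFP+ cells against 580 FPKM in GFP- cells (4 of 7 at least 4-fold lower), and the 5 tuft genes to 5.38 and 17.8 FPKM (1 of 5). Most of the hormone sum in GFP+ was *Gip*, at 141 FPKM against 275 FPKM in GFP-. Some genes of these lists were higher in GFP+. They were 3 of 7 enterocyte genes (*Sis* at 183 and 85.5 FPKM, *Lct* at 4.16 and 1.21, *Apoa4* at 241 and 223), with a class median of -0.04. They also included 2 of 5 goblet genes (*Muc2* and *Fcgbp*) and 1 of 5 tuft genes (*Dclk1*). The 6 blood and stroma genes summed to 253.5 FPKM in GFP+ cells against 5.72 FPKM in GFP- cells (2 of 5 at least 4-fold higher), most of it *Vim* at 237 and 4.90 FPKM. The endothelial gene *Pecam1* was at 10.4 and 0.187 FPKM, *Cd68* of macrophages at 2.71 and 0.595 FPKM, and the collagen genes *Col1a1* and *Col3a1* at 1.56 and 1.61 FPKM in GFP+ cells with 0.0106 and 0.00593 FPKM in GFP- cells, while *Ptprc*, which defines blood cells, was at 0.0224 FPKM in each. The 6 neuron and glia genes summed to 143 FPKM in GFP+ cells against 3.18 FPKM in GFP- cells (1 of 3 at least 4-fold higher), most of it *Snap25* at 137 and 1.53 FPKM. *Tubb3* was at 4.58 and 1.51 FPKM, the glial gene *Gfap* at 1.01 and 0.00642 FPKM, and *Sox10* at 0.0321 FPKM in GFP+ and listed at 0 in GFP-. The part of these cells in the differences below was not tested. In such bulk samples fewer cells of a type and less RNA per cell cannot be told apart.

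Of the 55 members, 29 reached 1 FPKM in the higher library and 26 stayed below it in both. Of the 29, 3 (10.3%) were at least 4-fold higher in GFP+, against 7.09% of the 11868 symbols that passed the same filter, and 0 were at least 4-fold lower, against 4.59%. The 3 were *Slc26a2*, *Slc26a4* and *Slc12a7*. With 29 members, neither share stands far from that of all symbols. The median difference over the 29 was 0.23, beside -0.12 over all 11868 symbols. Among the 23 members of at least 1 FPKM in both libraries, 11 were above 0 (47.8%, against 41.3% of 10199 such symbols), with a median of -0.04 beside -0.24. The other 6 (20.7% of the 29, against 10.8% of all symbols) reached 1 FPKM in GFP+ alone, which fixes the sign of their difference. No member reached 1 FPKM in GFP- alone.

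**Figure D1:**
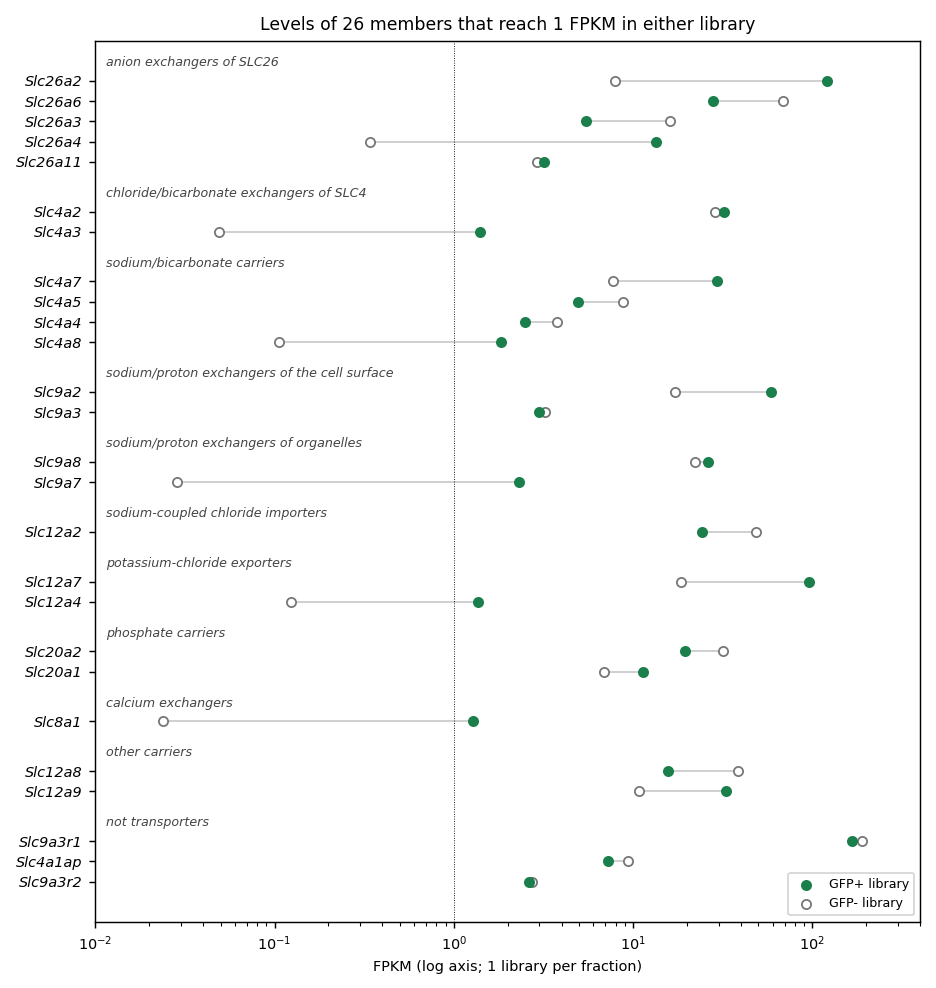
FPKM (log axis) of 26 of the 29 members that reached 1 FPKM in either library, grouped by role, with a filled point for the GFP+ library and an open point for the GFP- library (1 library each, no error bars). The longest gaps to the right belong to Slc9a7, Slc8a1, Slc26a4 and Slc4a3, whose GFP- level was below 1 FPKM, and Slc26a2 had the highest GFP+ level of any carrier at 120 FPKM.

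The summed level of the 52 carriers was 557 FPKM in GFP+ cells against 357 FPKM in GFP- cells, a ratio of 1.56 that was 2.21 and 2.40 under the other scalings. A different set of carriers led in each library. In GFP+ the 3 most abundant were *Slc26a2*, *Slc12a7* and *Slc9a2*, with 49.3% of the carrier sum between them. In GFP- they were *Slc26a6*, *Slc12a2* and *Slc12a8*, with 43.6%. These shares do not depend on how the libraries are scaled to each other. Of the 52 carriers, 13 were at 10 FPKM or more in GFP+ and 10 in GFP-, and 9 were the same genes. Over all 23532 symbols with an estimate in both libraries, 5563 were at 10 FPKM or more in both. Their numbers at 10 FPKM in each library are not given here. Whether an overlap of 9 is usual therefore cannot be said. Unlike the shares, the counts at 10 FPKM depend on the scaling.

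**Figure D2:**
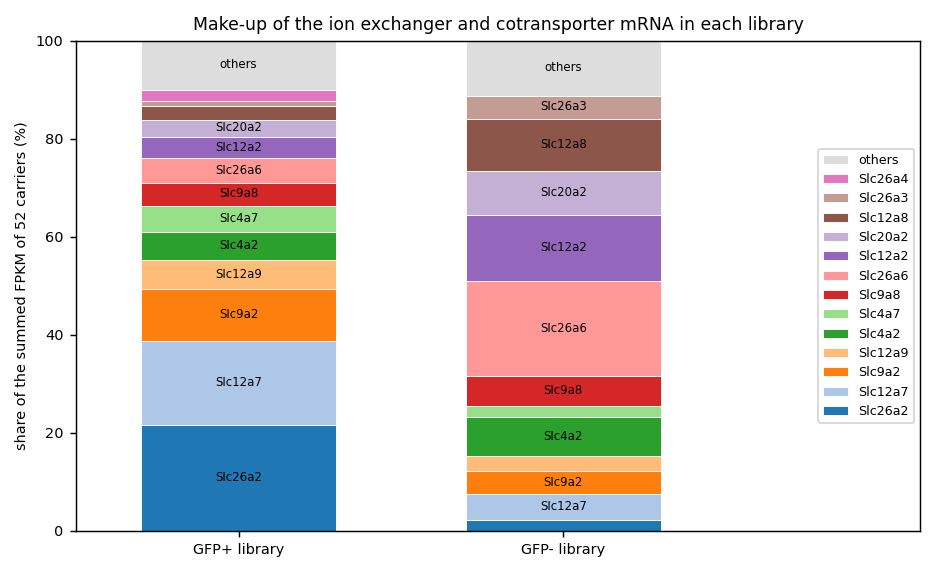
Share (%) of the summed FPKM of the 52 carriers held by 13 named carriers and by all others, as 1 stacked bar for the GFP+ library and 1 for the GFP- library. Slc26a2 fills 21.5% of the GFP+ bar and 2.22% of the GFP- bar, while Slc26a6 fills 5.00% and 19.3%.

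With a pseudocount of 1 the Slc26 anion exchangers *Slc26a2* and *Slc26a4* had the highest differences of all members. With 0.1 *Slc9a7* at 4.23 exceeded *Slc26a2* at 3.90, and with 5 *Slc12a7* at 2.11 exceeded *Slc26a4* at 1.78. *Slc26a2*, a sulfate/chloride exchanger whose human counterpart is mutated in skeletal dysplasias (chromosome 18, 61196854 to 61211596, minus strand, with this and later positions taken from the deposited loci on mm10), was at 120 FPKM in GFP+ cells against 7.93 FPKM in GFP- cells. The GFP+ level was 15.1 times the GFP- level, a log2 difference of 3.76 that ranked 197th from the top of 11868 symbols. It was the most abundant carrier in GFP+ and the 12th in GFP-. *Slc26a4* encodes pendrin, an exchanger of chloride, iodide and bicarbonate known from thyroid, inner ear and kidney (chromosome 12, 31519819 to 31559969, minus strand). It was at 13.4 FPKM in GFP+ cells against 0.340 FPKM in GFP- cells, 39.4 times as high, with a difference of 3.43. On the fragment scale estimated from the steps of low values, the GFP- value stood for about 62 fragments. With a pseudocount of 5 its difference was short of 4-fold.

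*Slc26a6* and *Slc26a3* were lower in GFP+. *Slc26a6*, an apical chloride/bicarbonate and oxalate exchanger of the small intestine (chromosome 9, 108854043 to 108862143), was at 27.9 FPKM in GFP+ cells against 68.8 FPKM in GFP- cells, a difference of -1.27. *Slc26a3*, the apical chloride/bicarbonate exchanger whose loss causes congenital chloride diarrhoea in humans (chromosome 12, 31438219 to 31473919, plus strand), was at 5.43 FPKM in GFP+ cells against 16.1 FPKM in GFP- cells, a difference of -1.41, the lowest of any member. Neither reached 4-fold, and both stayed below 0 under the other scalings (-0.78 and -0.67 for *Slc26a6*, -0.96 and -0.86 for *Slc26a3*). *Slc26a11*, a sulfate and anion carrier, was at 3.17 FPKM in GFP+ cells against 2.92 FPKM in GFP- cells. The other 6 Slc26 members stayed below 1 FPKM, the highest being *Slc26a1* at 0.377 FPKM in GFP+ cells against 0.0107 FPKM in GFP- cells, whose listed locus overlaps the rows of *Idua*, *Dgkq* and *Tmem175* and whose upper bounds were 4.74 and 0.585 FPKM. The order within the family thus differed between the libraries. *Slc26a2* was 4.30 times *Slc26a6* in GFP+ and 0.115 times in GFP-, and *Slc26a2* held 70.4% of the family's summed FPKM in GFP+ and 8.25% in GFP-.

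*Slc26a3* and *Slc26a4* are neighbours on chromosome 12, on opposite strands with their 3′ ends facing, 45.9 kb apart with 1 other listed row between them. The GFP+ level was higher for one and lower for the other. Within a library *Slc26a4* was 2.47 times *Slc26a3* in GFP+ and 0.0211 times in GFP-. Their promoters are shown because these adjacent relatives differed in opposite directions, beside those of *Slc12a7* and *Slc12a9*, a pair of Slc12 members that were both higher in GFP+. The windows run from 250 bases before the annotated start to 50 after it, 5′ to 3′ on the strand of the gene, from RefSeq on GRCm38.p6 (the assembly of mm10). They lie at chr12:31559935-31560234 (minus strand) for *Slc26a4*, chr12:31437969-31438268 (plus) for *Slc26a3*, chr13:73763447-73763746 (plus) for *Slc12a7* and chr5:137333533-137333832 (minus) for *Slc12a9*, and each start is within 15 bases of the start listed in the files. Capitals mark exact matches, on either strand, to TATAAA, known as the TATA box, to GGGCGG, called a GC box in many housekeeping promoters, to CCAAT, to the NeuroD-type E-box with letters CAGATG, and to the cAMP response element with letters TGACGTCA. Each motif was searched alone, and none of the printed matches overlap between motifs.
Slc26a4: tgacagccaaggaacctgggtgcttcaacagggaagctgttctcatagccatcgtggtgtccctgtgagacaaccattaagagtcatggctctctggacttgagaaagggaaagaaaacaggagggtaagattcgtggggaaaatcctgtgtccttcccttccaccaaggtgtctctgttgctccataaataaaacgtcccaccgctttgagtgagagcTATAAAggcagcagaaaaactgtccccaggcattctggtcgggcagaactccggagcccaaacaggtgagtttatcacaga
Slc26a3: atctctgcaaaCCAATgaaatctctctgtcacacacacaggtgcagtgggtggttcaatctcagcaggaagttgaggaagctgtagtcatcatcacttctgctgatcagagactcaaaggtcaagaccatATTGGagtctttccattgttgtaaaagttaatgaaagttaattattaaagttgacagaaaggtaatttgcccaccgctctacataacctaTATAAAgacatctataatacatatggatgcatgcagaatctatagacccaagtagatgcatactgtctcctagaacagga
Slc12a7: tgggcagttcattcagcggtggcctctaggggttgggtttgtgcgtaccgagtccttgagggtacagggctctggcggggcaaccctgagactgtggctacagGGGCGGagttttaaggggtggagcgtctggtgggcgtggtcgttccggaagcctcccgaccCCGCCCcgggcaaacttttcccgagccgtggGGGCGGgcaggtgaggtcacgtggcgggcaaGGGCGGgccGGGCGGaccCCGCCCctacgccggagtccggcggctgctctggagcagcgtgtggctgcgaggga
Slc12a9: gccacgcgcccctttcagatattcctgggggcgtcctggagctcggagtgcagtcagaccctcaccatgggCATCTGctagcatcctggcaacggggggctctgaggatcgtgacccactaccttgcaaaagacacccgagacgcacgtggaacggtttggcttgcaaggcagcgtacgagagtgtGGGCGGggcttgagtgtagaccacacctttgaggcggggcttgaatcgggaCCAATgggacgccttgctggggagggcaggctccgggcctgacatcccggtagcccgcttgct
Both Slc26 windows held a TATAAA, beginning 31 bases before the start of *Slc26a4* and 30 bases before that of *Slc26a3*. Over all 32851 windows of this length, 13.6% held TATAAA or its reverse complement. The *Slc26a3* window also held 2 matches to CCAAT, which 37.4% of all windows hold. The *Slc12a7* window held 6 GC boxes and no TATAAA, and 35.7% of windows hold a GC box. Another window of *Slc12a7*, not shown, has its start 37 bases from the listed one and held 6 GC boxes and 1 NeuroD-type E-box. The *Slc12a9* window held 1 GC box, 1 CCAAT and 1 NeuroD-type E-box, the last found in 17.1% of windows. No window shown held the cAMP response element, which 1.79% of all windows hold. G and C made up 39.3% of the *Slc26a3* window, 69.3% of the *Slc12a7* window and 63.0% of the *Slc12a9* window, beside a median of 52.7% over all windows. A window was given for 42 of the 55 members.

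Among the cation-chloride cotransporters, an exporter was the most abundant in GFP+ and an importer in GFP-. *Slc12a7* encodes KCC4, a potassium-chloride exporter (chromosome 13, 73763697 to 73816742, plus strand). It was at 96.0 FPKM in GFP+ cells against 18.5 FPKM in GFP- cells, 5.19 times as high, with a difference of 2.32, and was the 2nd most abundant carrier in GFP+ and the 7th in GFP-. *Slc12a4*, the widely expressed KCC1, was at 1.36 FPKM in GFP+ cells against 0.124 FPKM in GFP- cells. *Slc12a5*, the neuronal exporter KCC2, stayed below 1 FPKM, at 0.499 FPKM in GFP+ cells (about 179 fragments) against 0.0136 FPKM in GFP- cells (about 5 fragments).

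The chloride importer *Slc12a2*, encoding NKCC1 of the basal membrane (chromosome 18, 57878678 to 57946821), was at 24.2 FPKM in GFP+ cells against 48.4 FPKM in GFP- cells. Its difference of -0.97 did not reach 4-fold and was -0.48 and -0.37 under the other scalings. The kidney importers *Slc12a1* and *Slc12a3* were below 0.1 FPKM in both libraries. The exporter *Slc12a7* was 3.96 times the importer *Slc12a2* in GFP+ and 0.382 times in GFP-, a ratio within each library that the scaling between libraries does not touch. The more distant members *Slc12a9* and *Slc12a8* differed in opposite directions. *Slc12a9*, a partner of other cation-chloride cotransporters, was at 33.2 FPKM in GFP+ cells against 10.8 FPKM in GFP- cells (difference 1.53, and 2.12 with one total), while *Slc12a8* was at 15.6 FPKM in GFP+ cells against 38.3 FPKM in GFP- cells (difference -1.24, and -0.76 and -0.65 under the other scalings).

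Of the sodium/proton exchangers of the cell surface, *Slc9a2* was the most abundant in both libraries. This apical exchanger, NHE2 (chromosome 1, 40681712 to 40768885, plus strand), was at 58.6 FPKM in GFP+ cells against 17.1 FPKM in GFP- cells, 3.44 times as high. Its difference of 1.72 missed 4-fold as deposited and passed it under both other scalings, at 2.21 and 2.32. *Slc9a3*, the NHE3 of absorptive enterocytes, was at 3.00 FPKM in GFP+ cells against 3.22 FPKM in GFP- cells, a difference of -0.08 that turned above 0 under both other scalings. *Slc9a2* was 19.5 times *Slc9a3* in GFP+ and 5.29 times in GFP-. *Slc9a4*, the next gene upstream of *Slc9a2* at a distance of 51.0 kb, was at 0.888 FPKM in GFP+ cells against 0.340 FPKM in GFP- cells, and *Slc9a5* was at 0.298 and 0.498 FPKM.

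Of the exchangers of organelles, *Slc9a8*, found in Golgi and apical membranes, was at 26.3 FPKM in GFP+ cells against 22.2 FPKM in GFP- cells. *Slc9a7*, an exchanger of the trans-Golgi network (chromosome X, 20105755 to 20291764, minus strand), was at 2.32 FPKM in GFP+ cells (about 346 fragments) against 0.0286 FPKM in GFP- cells (about 4 fragments). The ratio of 81.2 was the highest of any member of at least 1 FPKM, but rests on the few fragments of the GFP- library. Its log2 difference was 1.69 with a pseudocount of 1 and 4.23 with 0.1. *Slc9a9* was at 0.132 FPKM in GFP+ cells against 0.0439 FPKM in GFP- cells. The scaffold *Slc9a3r1*, NHERF1 of the microvilli, was more abundant than any carrier, at 165 FPKM in GFP+ cells against 188 FPKM in GFP- cells, and *Slc9a3r2* was at 2.63 and 2.73 FPKM. The differences of both scaffolds, -0.18 and -0.04, turned above 0 under both other scalings.

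**Figure D3:**
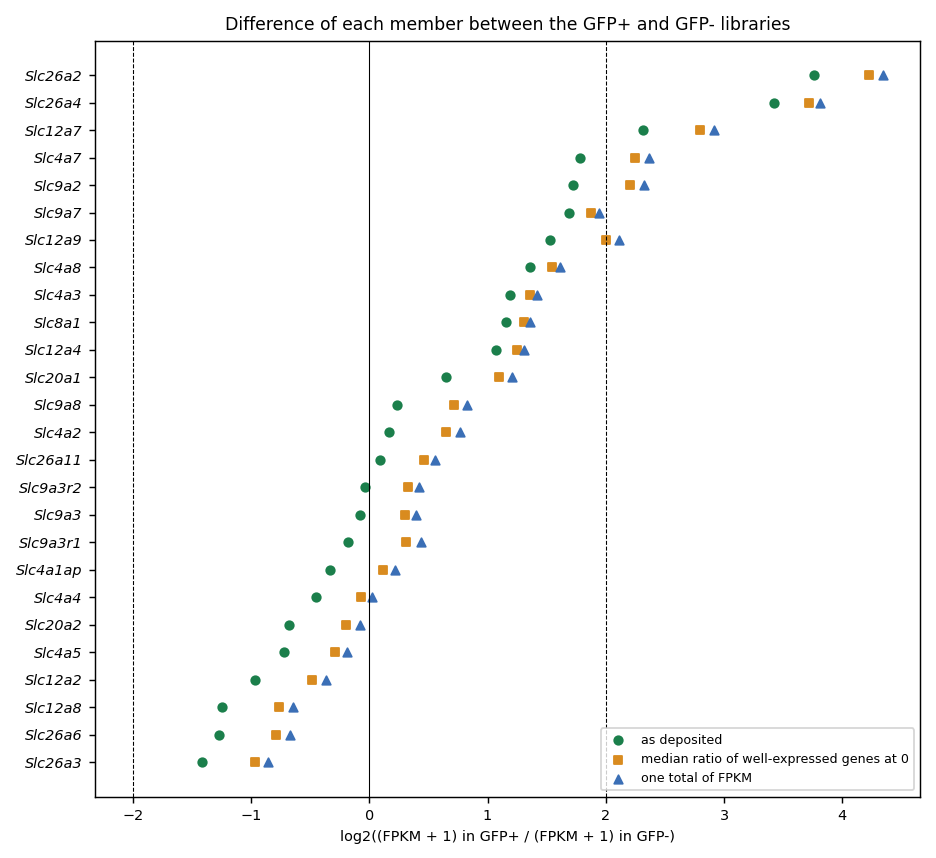
Log2((FPKM + 1) in GFP+ / (FPKM + 1) in GFP-) of 26 of the 29 members, with circles for the values as deposited, squares with the median ratio of genes of at least 10 FPKM set to 0, and triangles with both libraries rescaled to one total. Dashed lines mark 4-fold, which Slc26a2, Slc26a4 and Slc12a7 pass under all 3 scalings, and Slc4a7 and Slc9a2 under the 2 rescalings.

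Among the bicarbonate carriers of the Slc4 family, *Slc4a7* had the highest difference with a pseudocount of 1 (1.79), while with 0.1 *Slc4a3* at 3.33 and *Slc4a8* at 3.23 exceeded *Slc4a7* at 1.90. *Slc4a7*, the electroneutral sodium/bicarbonate carrier NBCn1 (chromosome 14, 14703025 to 14799943), was at 29.2 FPKM in GFP+ cells against 7.75 FPKM in GFP- cells, 3.76 times as high. Its difference of 1.79 was 2.25 and 2.36 under the other scalings. The electrogenic carriers lay below 0 as deposited: *Slc4a4*, the basal NBCe1, was at 2.50 FPKM in GFP+ cells against 3.77 FPKM in GFP- cells (difference -0.45, and 0.021 with one total), and *Slc4a5*, NBCe2, was at 4.92 FPKM in GFP+ cells against 8.77 FPKM in GFP- cells (difference -0.72, and -0.29 and -0.19 under the other scalings). *Slc4a7* was 11.7 times *Slc4a4* in GFP+ and 2.06 times in GFP-. *Slc4a2*, the chloride/bicarbonate exchanger AE2 of most epithelia, was close in both libraries as deposited, at 32.2 FPKM in GFP+ cells against 28.6 FPKM in GFP- cells. Its difference of 0.17 was 0.65 and 0.77 under the other scalings.

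The 6 members that reached 1 FPKM in GFP+ alone were *Slc26a4*, *Slc9a7* and *Slc12a4*, given above, and *Slc4a8*, *Slc4a3* and *Slc8a1*. *Slc4a8*, a sodium-driven chloride/bicarbonate exchanger of neurons, was at 1.83 FPKM in GFP+ cells against 0.106 FPKM in GFP- cells. *Slc4a3*, the exchanger AE3 of brain and heart, was at 1.40 FPKM in GFP+ cells against 0.0489 FPKM in GFP- cells (about 21 fragments). The sodium/calcium exchanger *Slc8a1*, NCX1 of heart muscle (chromosome 17, 81373105 to 81738387), was at 1.28 FPKM in GFP+ cells against 0.0240 FPKM in GFP- cells (about 26 fragments). With a pseudocount of 0.1 all 3 passed 4-fold, as did *Slc9a7* and *Slc12a4*, at differences of 2.71 to 4.23. These 5 levels in GFP+ were between 1.28 and 2.32 FPKM, far below those of *Slc26a2* or *Slc12a7*.

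The other calcium exchangers were scarce. *Slc8a3* was at 0.292 FPKM in GFP+ cells against 0.138 FPKM in GFP- cells, and *Slc8a2* was listed at 0 in both. Of the 5 potassium-dependent exchangers of the Slc24 family none reached 1 FPKM. *Slc24a5* was highest in GFP+ at 0.236 FPKM, against 0.0181 FPKM in GFP-, with its locus overlapping the opposite-strand gene *Myef2*, and *Slc24a3* was at 0.0299 FPKM in GFP+ cells against 0.154 FPKM in GFP- cells. *Slc24a2* and *Slc24a4* were listed at 0 in both libraries. At the estimated fragment scale a 3 kb transcript at 3 fragments would be at 0.0169 FPKM, and a listing at 0 allows levels up to about this value.

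Phosphate carriers were represented by the Slc20 family. *Slc20a2*, the sodium/phosphate carrier PiT-2, was at 19.5 FPKM in GFP+ cells against 31.8 FPKM in GFP- cells. Its difference of -0.68 was -0.20 and -0.08 under the other scalings, and its locus overlaps the opposite-strand gene *Smim19*. *Slc20a1*, PiT-1, was at 11.3 FPKM in GFP+ cells against 6.85 FPKM in GFP- cells, a difference of 0.65 that was 1.096 and 1.205 under the other scalings. *Slc20a2* was 1.73 times *Slc20a1* in GFP+ and 4.64 times in GFP-. *Slc34a2*, the apical phosphate carrier NaPi-IIb of intestine and lung, was at 0.145 FPKM in GFP+ cells against 0.0925 FPKM in GFP- cells. Its kidney relative *Slc34a1* was at 0.117 FPKM in GFP+ cells against 0.151 FPKM in GFP- cells, and *Slc34a3* was listed at 0 in both. The sum over the 5 phosphate carriers was 31.1 FPKM in GFP+ cells against 38.9 FPKM in GFP- cells, a ratio of 0.799 that turned above 1 under both other scalings (1.13 and 1.23).

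Of the 26 members below 1 FPKM in both libraries, 11 reached 0.1 FPKM in the higher one and 15 did not. No level in this set exceeded 0.888 FPKM in GFP+ or 0.498 FPKM in GFP-. Besides those named above, *Slc4a11*, a carrier of corneal endothelium, was at 0.161 FPKM in GFP+ cells against 0.107 FPKM in GFP- cells. In all, 4 members were listed at 0 in both libraries and 3 in one of them. The non-carrier *Slc4a1ap* was at 7.24 FPKM in GFP+ cells against 9.38 FPKM in GFP- cells, a difference of -0.33 that turned above 0 under both other scalings.

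**Figure D4:**
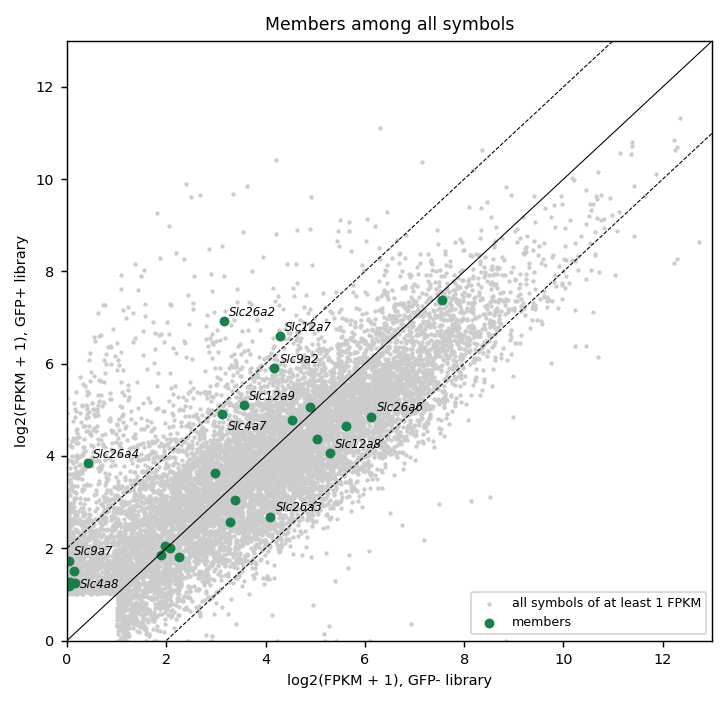
Log2(FPKM + 1) in the GFP+ library against the GFP- library for the 11868 symbols that reached 1 FPKM in either (grey) with 26 of the 29 members in green, a solid line of equality and dashed lines at 4-fold. Slc26a2, Slc26a4 and Slc12a7 lie above the upper dashed line and no member shown lies below the lower one.

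A list of 41 partner genes, which make bicarbonate, phosphorylate the cotransporters or bind the exchangers, showed 27 above 1 FPKM. Of these 1 was at least 4-fold higher in GFP+ and 1 at least 4-fold lower, beside 7.09% and 4.59% of all symbols, and their median difference was 0.04 beside -0.12. With the median ratio set to 0 the split was 4 higher and 0 lower, where 10.3% of all symbols were higher, and with one total it was 5 and 0, where 11.2% were higher. *Car2*, the main cytosolic carbonic anhydrase, which makes bicarbonate and protons for the exchangers, was at 104.6 FPKM in GFP+ cells against 13.9 FPKM in GFP- cells, a difference of 2.83. *Car13*, another cytosolic form, was at 3.10 FPKM in GFP+ cells against 15.9 FPKM in GFP- cells (difference -2.04, and -1.62 and -1.52 under the other scalings). *Car11*, a form without enzyme activity, was at 3.95 FPKM in GFP+ cells against 0.268 FPKM in GFP- cells, a difference of 1.97. The most abundant, *Car9* of the cell surface, was at 165 FPKM in GFP+ cells against 237 FPKM in GFP- cells.

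Of the 8 exchanger cofactors, 6 lay above 0 as deposited and the rest below, with a median difference of 0.93 beside -0.12 over all 11868 symbols. Among symbols of 1 FPKM or more in both libraries, 41.3% lay above 0. The 6 include a cofactor that reached 1 FPKM in GFP+ alone, which fixes its sign. Cofactors below 0 are not named here, so those named next were all higher in GFP+. The most abundant cofactor in GFP+ was *Ahcyl1*, whose product IRBIT binds and activates bicarbonate carriers, at 262 FPKM in GFP+ cells against 84.0 FPKM in GFP- cells (difference 1.63). Its relative *Ahcyl2* was at 137 FPKM in GFP+ cells against 39.4 FPKM in GFP- cells (difference 1.77), and both passed 4-fold under the other scalings, *Ahcyl1* at 2.12 and 2.24 and *Ahcyl2* at 2.26 and 2.38. *Pdzd3*, a scaffold of the NHERF family, was at 32.9 FPKM in GFP+ cells against 11.6 FPKM in GFP- cells and passed it with one total, at 2.02. In the WNK pathway, whose kinases switch on NKCC1 and switch off the potassium-chloride exporters, no gene reached 4-fold as deposited. *Wnk4* was at 28.7 FPKM in GFP+ cells against 12.1 FPKM in GFP- cells, *Stk39*, encoding the kinase SPAK, at 16.0 and 34.4 FPKM, and *Cab39* at 58.0 and 33.5 FPKM. The chloride channel gene *Cftr* was at 14.7 FPKM in GFP+ cells against 20.2 FPKM in GFP- cells, a difference of -0.44 that turned above 0 under both other scalings. Of related carriers outside the 8 families, the mitochondrial sodium/calcium exchanger *Slc8b1* was at 7.25 FPKM in GFP+ cells against 4.56 FPKM in GFP- cells.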

How the data were processed

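Messenger RNA from 1 GFP+ and 1 GFP- library was analysed. The tools named are FastQC, TopHat2 0.7, Cufflinks and Cuffdiff with mm10, per the submitters' processing notes. The deposited values are FPKM with confidence bounds and a status, per the file headers. Annotation, library scaling, multiply mapped reads and strand are each "not given in the sources used here", so overlapping genes on opposite strands cannot be told apart.

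FPKM was summed per symbol over 23532 symbols estimated in both libraries, leaving out 5 rows without an estimate in GFP+. Symbols reaching 1 FPKM in either library were compared as log2(FPKM + 1), with a 4-fold size rule and no test. The calculation was checked on data with known answers (python 3.11.15, numpy 2.4.6, pandas 2.3.3). That check set large changes in genes of high level, so it covers the arithmetic of the size rule and not the spread between libraries.

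FPKM gives no counts. The low values of single-transcript genes longer than 3000 bases (GENCODE M21) came in steps, and the fullest was taken as 1 fragment: 59.3 fragments per FPKM and kilobase in GFP+ (67.8% of 199 values below 4.5 fragments within 0.1 of a whole number) and 59.1 in GFP- (73.1% of 297). The unit was chosen on the same values. Fragments given for a member use its longest annotated transcript, and cover counting error only.

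Members, lists and named genes (every member of at least 1 FPKM, partners past 4-fold and the most abundant partners of each class) were chosen with earlier results of these data known. The promoters shown and further partners were chosen after their values were seen. Some members and partners are counted in the totals but not reported here by name. Protein sequences are not shown. Alternatives were other pseudocounts, filters, scalings, row handling and member definitions.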

Additional observations from a re-analysis of the deposited data

How the results depend on the processing

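No paired analysis was possible because each fraction is 1 library and no test was run. The count of members at least 4-fold higher in GFP+ was 3 of 29 as reported. With a pseudocount of 0.1 it was 8 of 29, where 12.8% of all symbols were higher. These 8 include all 6 members that reached 1 FPKM in GFP+ alone, which fixes their sign. With a pseudocount of 5 the count was 2 of 29, where 2.97% of all symbols were higher. With the median ratio of well-expressed genes set to 0 it was 5 of 30, where 10.3% of all symbols were higher. With one total it was 6 of 30, where 11.2% were. *Slc26a2* and *Slc12a7* were among the members 4-fold higher in each of the 10 settings run. No member was 4-fold lower in any of these settings. Of all symbols, 545 of 11868 were 4-fold lower as reported, 176 of 11944 with the median ratio set to 0 and 130 of 11989 with one total. The median difference over members, 0.23 as reported, was 0.70 and 0.80 under the rescalings (0.34 and 0.45 over all symbols), 0.013 with no filter and 0.66 without the 3 members that are not transporters. The 3 most abundant members held 52.1% of the summed member FPKM in GFP+ and 54.8% in GFP-, and 49.3% and 43.6% without those 3. Partner genes 4-fold higher numbered 2 with a pseudocount of 0.1, 4 with the median ratio set to 0 and 5 with one total, against 1 as reported, and those 4-fold lower numbered 0 with a pseudocount of 5 and under both rescalings, against 1. Of 248 recomputed differences of single members, 226 kept their sign and their side of 4-fold, 10 crossed to pass it, 1 no longer passed it and 11 changed sign without having passed it. The settings of filter, row handling, status and member definition cannot alter the difference of a single member, since each member had 1 row with status OK. Many of the 226 were thus fixed in advance and do not measure stability. All changes arose under the other pseudocounts and the rescalings. The cause of these changes was not tested beyond what each setting does by construction. With 1 library per fraction, replicates could not be left out in turn.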

Other observations

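A few members had wider deposited bounds than the rest. The upper bound of *Slc26a1* was 12.6 times its FPKM in GFP+ and 54.9 times in GFP-, that of *Slc24a5* 10.6 and 37.4 times, and both loci overlap other listed genes. Members lie on 18 chromosomes, with 10 of the 55 on chromosome 2. Beside the *Slc26a3* and *Slc26a4* pair and the *Slc9a4* and *Slc9a2* pair, *Slc24a5* and *Slc12a1* lie 28.9 kb apart on chromosome 2, and both were below 1 FPKM in each library.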
